A study of Arabidopsis thaliana with 4 samples.

Results

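NAC transcription factors are a plant-specific family named after the founding genes NAM, ATAF and CUC. Each protein binds DNA through an N-terminal NAC domain, and the rest of the protein differs between members and carries the activating or repressing function. Members are known for organ boundaries, secondary walls, leaf senescence and responses to drought, wounding, heat and failing organelles, and some are held at a membrane until a signal releases them. Of the 25819 genes in the deposited Arabidopsis thaliana table, 88 entries carry the name of a NAC domain protein in their description, and these were taken as the family. In 3 of the 88 the name belongs to a neighbouring gene, so the counts below are over the 85 genes named for their own locus. Another 14 NAC genes, among them ANAC013, NAP and VND6, are named in another way in the table, lie outside this choice and are mentioned only where a result turns on them.

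Whole plantlets of the Columbia-0 accession, 21 days old and grown at 20 °C under continuous light on solid medium with sucrose, were either wild type (WT) or mutant for larp1, an allele called larp1-1 in the authors' tables. LARP1 belongs to the La-related proteins, which bind RNA. Pools of 6 to 8 plantlets were moved for 15 min into liquid medium at 20 °C or into medium already warmed to 38 °C. Each genotype was thus sampled at both temperatures, which makes 4 groups of 1 library. Without replicates no p-value can be given, and every comparison below sets single libraries side by side.

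Levels are in RPM, reads scaled to the size of the library, added up for each gene from its distinct exon entries. They rest on about 46100000 reads for WT and 74400000 for larp1 at 20 °C, and 42600000 and 44900000 at 38 °C, as the worth of 1 read in the files gives them. The column used for larp1 at 20 °C carries a suffix that the labels do not explain and was matched by the rest of its name, so every value of that library rests on this match. LARP1A (AT5G21160), taken as the mutated gene, measured 37.1 and 33.1 RPM in the WT libraries and 9.21 and 9.29 RPM in those of larp1, at 20 and 38 °C in that order. Genes entered a comparison when 50 reads or more were present in 1 of its libraries. It was called higher or lower when the values differed at least 2-fold and a 95% counting interval excluded no change; such intervals, given in brackets, cover counting error only. Leaf markers (3 genes) summed to between 9361 and 18150 RPM in the libraries. Flower markers summed to at most 0.16 RPM, and of these AP1 and AP3 had 0 reads in at least 1 library.

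The family was expressed over a wide range, and a few genes carried most of it. Of the 85 genes, 60 reached 50 reads in at least 1 library, 25 did not, and 10 of those stayed under 10 reads in every library. No gene was without reads in all 4 libraries, and 12 had 0 reads in at least 1. Per kb of coding length, ATAF2 (AT5G08790) had the highest mean level, 294 RPM per kb, followed by ATAF1 (AT1G01720) at 189, ANAC102 (AT5G63790) at 130 and RD26 (AT4G27410) at 127 RPM per kb. ANAC078 (AT5G04410) had 101 and NTL6 (AT3G49530) 88.8 RPM per kb. The first 4 of these genes belong to the ATAF and RD26 group of stress-responsive NAC factors, and the last 2 are membrane-bound forms. The order rests on how entries are summed: most of the ATAF2 and ANAC102 reads of WT at 20 °C lie in an exon entry that carries the name of an overlapping gene. Over the entries named for the NAC gene alone, ATAF1 came first at 189 RPM per kb, ahead of RD26 at 127 and ATAF2 at 119, while ANAC102 had 47.5 RPM per kb and lay below ANAC078, NTL6 and ANAC036. RD26 in turn sums entries with nearly equal values, which may share reads. Summed over the 85 genes, the level at 20 °C was 1054 RPM for WT and 1321 RPM for larp1, and at 38 °C it was 1624 and 1838 RPM. The 6 highest genes of each library made up 56.0% of that sum in WT and 51.3% in larp1 at 20 °C, and 78.3% and 72.2% at 38 °C. Genes at the bottom of the range included CUC2 (AT5G53950), a founder of the family that marks organ boundaries, with at most 0.04 RPM.

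**Figure D1:**
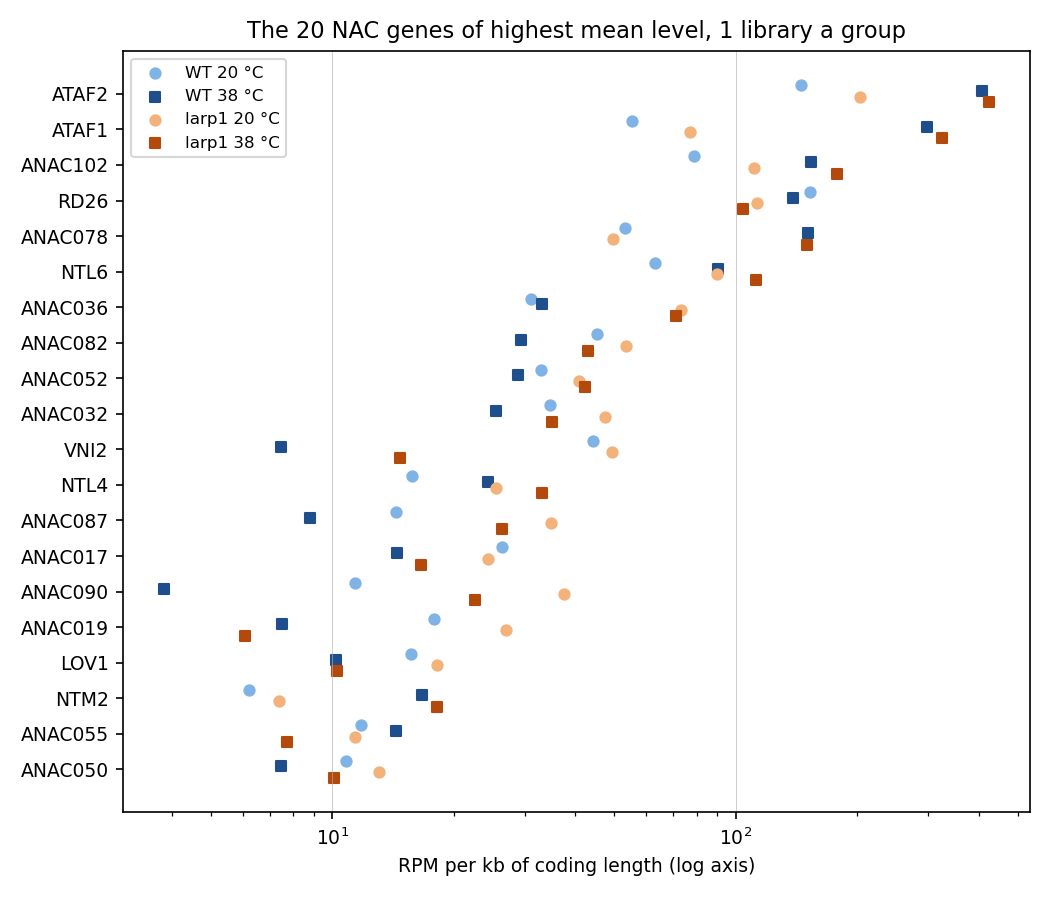
RPM per kb of coding length (log axis) of the 20 NAC genes with the highest mean level; each point is 1 library, circles at 20 °C and squares at 38 °C, blue for WT and orange for larp1. ATAF2 and ATAF1 lie further right at 38 °C in both genotypes and VNI2 further left; the top place of ATAF2 includes an exon entry named for an overlapping gene, without which its mean is 119 RPM per kb, below that of ATAF1 at 189.

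The heat comparisons set NAC transcripts after 15 min at 38 °C beside those at 20 °C in each genotype. In WT, 4 NAC genes were higher and 11 lower of 47 compared; among all 19387 genes compared, 4.26% were higher and 25% lower. In larp1, 4 were higher and 13 lower of 60 compared, beside 4.19% and 19.8% of 20477 genes. The genes higher in larp1 were the 4 that were higher in WT, namely ATAF1, ATAF2, ANAC078 and NTM2. Of the genes compared in both genotypes, 11 were lower in WT and 9 in larp1, and 8 were lower in both. The median log2 ratio of the NAC genes compared was -0.53 in WT and -0.47 in larp1, and that of all genes was -0.51 and -0.43, so the share of lower NAC genes lay near the background. Scaling by trimmed means or by medians of ratios moved the median of all genes to between -0.04 and 0.02; it then called 7 NAC genes higher and 4 lower in WT and 5 higher and 4 lower in larp1. With trimmed means, 6.87% of all genes were higher and 11.3% lower in WT, and 6.08% and 9.98% in larp1; with medians of ratios the shares were 7.16% and 10.8%, and 6.47% and 9.36%.

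**Figure D2:**
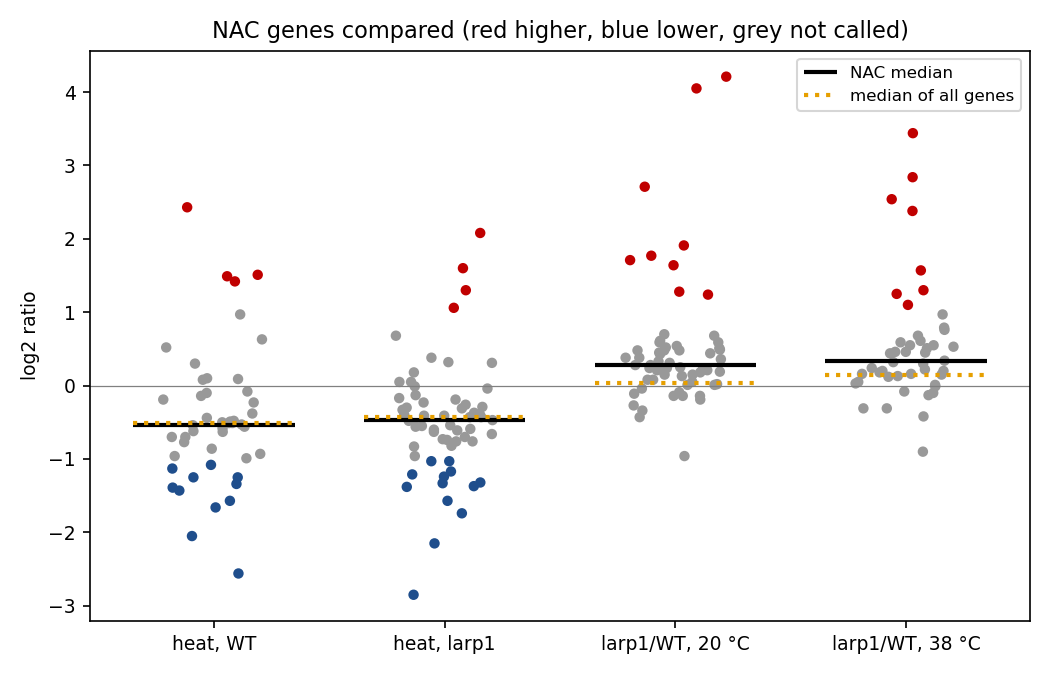
log2 ratio of every NAC gene compared, in 4 comparisons; each point is a gene, red where called higher, blue where called lower and grey otherwise, with the NAC median as a black line and the median of all genes as a dotted line. Under heat the 2 medians lie close together, at -0.53 and -0.51 in WT, and in the larp1 comparisons the NAC median lies above that of all genes.

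Within the ATAF and RD26 stress group, 2 of 7 genes were higher and 1 lower in both genotypes. Beside this, 4.26% of all genes were higher and 25% lower in WT, and 4.19% and 19.8% in larp1. ATAF1, which responds to wounding, drought and abscisic acid, had 48.1 RPM at 20 °C and 259 RPM at 38 °C in WT, and 67.2 and 283.2 RPM in larp1. Both heated libraries lay far above both libraries kept at 20 °C. The log2 ratio was 2.43 [2.36, 2.49] in WT, the highest among the 47 NAC genes compared, and 2.08 [2.03, 2.12] in larp1. All 3 exon entries of ATAF1 with at least 20 reads went the same way, by 4.79-fold to 5.64-fold in WT. ATAF2, a wound and pathogen response gene, stood at 123 and 173 RPM at 20 °C and at 347 and 360.3 RPM at 38 °C in WT and larp1. Its log2 ratio was 1.49 [1.45, 1.54] in WT and 1.06 [1.03, 1.09] in larp1. ANAC102, known from seed germination under low oxygen, went from 76.3 to 149.6 RPM in WT and from 107 to 172 RPM in larp1, log2 ratios of 0.97 and 0.68 that stayed under 2-fold. Part of the ATAF2 and ANAC102 reads sits in exon entries that carry the name of the overlapping gene on the other strand; over the entries named for the NAC gene alone, the log2 ratios in WT were 1.49 and 1.09, which puts ANAC102 past 2-fold.

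RD26 and ANAC032 were not called, and ANAC019 fell. RD26, a regulator of abscisic acid and drought responses, stood at 144 and 107 RPM at 20 °C and at 131 and 97.8 RPM at 38 °C in WT and larp1, with heat log2 ratios of -0.14 and -0.13. ANAC032 (AT1G77450), a close relative of ATAF1, had log2 ratios of -0.44 and -0.43. ANAC019 (AT1G52890), which acts with ANAC055 and RD26 in jasmonate and abscisic acid responses, fell from 17.1 to 7.18 RPM in WT and from 25.8 to 5.79 RPM in larp1. Its log2 ratio was -1.25 [-1.45, -1.06] in WT and -2.15 [-2.35, -1.97] in larp1. With trimmed-mean or median-of-ratios scaling the WT value was -0.74 or -0.72 and no longer called, and the larp1 value, -1.76 or -1.72, was.

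The other 2 heat-raised genes code for proteins with a hydrophobic tail. Membrane-bound NAC factors hold a C-terminal transmembrane segment, and cutting or release from it lets the protein enter the nucleus. In the proteins translated from the RefSeq annotation, 10 of the 85 had a window of 19 residues within the last 120 whose mean Kyte-Doolittle hydropathy was at least 1.6, with values from 1.94 to 2.76; the highest value among the other 75 was 1.25. The 10 were ANAC001, ANAC016, ANAC017, ANAC028, NTL4 (ANAC053), ANAC060, NTL6 (ANAC062), NTM2 (ANAC069), ANAC078 and ANAC089. Their median length was 509.0 residues against 318.0 for the other 75, and their median mean level was 9.09 RPM per kb against 1.18 RPM per kb.

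**Figure D3:**
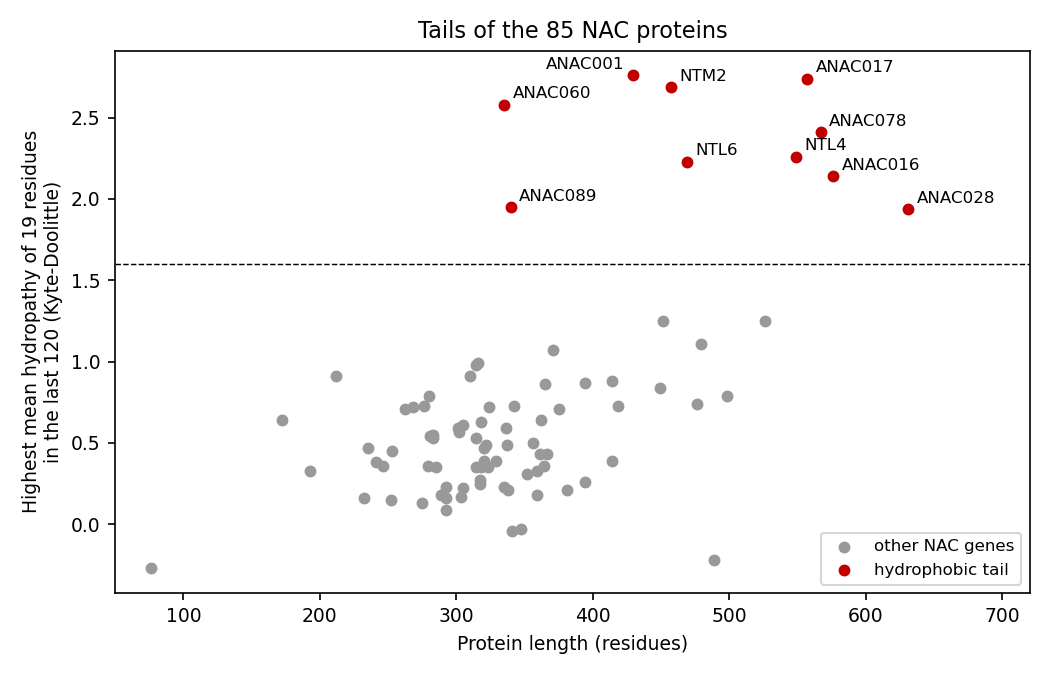
Protein length in residues against the highest mean Kyte-Doolittle hydropathy of 19 residues within the last 120, for the 85 NAC proteins; red points, labelled, lie at or above the dashed line at 1.6. The 10 red points lie between 1.94 and 2.76, and no other point lies above 1.25.

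ANAC078, a regulator of proteasome and flavonoid genes, went from 90.4 to 258 RPM in WT and from 84.7 to 256 RPM in larp1. The log2 ratio was 1.51 [1.46, 1.56] in WT and 1.6 [1.55, 1.64] in larp1, and all 6 exon entries with at least 20 reads were higher in both. NTM2 (AT4G01550), linked to auxin and salt during germination, went from 8.57 to 22.9 RPM in WT and from 10.13 to 24.95 RPM in larp1, log2 ratios of 1.42 [1.25, 1.59] and 1.30 [1.17, 1.44]. Within both genes the 2 heated libraries lay close together, and so did the 2 kept at 20 °C. NTL6, a factor released by cold and by stress in the endoplasmic reticulum, had log2 ratios of 0.52 in WT and 0.31 in larp1. NTL4 (AT3G10500), which promotes reactive oxygen production in drought and heat, had 0.63 and 0.38. NTL4, NTL6 and ANAC102 were the genes that the other scalings added to the higher calls in WT, and ANAC102 the gene they added in larp1. ANAC017 (AT1G34190), a sensor of mitochondrial stress, went the other way, from 44.1 to 24.3 RPM in WT and from 40.9 to 27.9 RPM in larp1, under 2-fold. ANAC028 (AT1G65910) was the 1 lower gene with such a tail, at -1.66 [-2.47, -1.02] and -1.21 [-1.75, -0.73]. Of the 9 genes with a hydrophobic tail compared, 2 were higher and 1 lower in each genotype, and their median log2 ratio was 0.10 for WT and -0.29 for larp1. Among all genes, 4.26% were higher and 25% lower in WT, and 4.19% and 19.8% in larp1.

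The 300 bases before each gene start were searched on both strands for GAA, 2 bases of any kind and TTC, the core of a heat shock element, the site of heat shock factors. The core occurred in 14 of the 85 NAC promoters, 16.5%, and in 11.5% of the 24027 promoters of the table's protein-coding genes. It occurred in 6 of the 10 genes with a hydrophobic tail, and among the 4 heat-raised genes in ANAC078 and NTM2 but not in ATAF1 or ATAF2. Of the 9 NAC genes with the core that were compared in WT, 2 were higher and 0 lower, with a median of 0.10. Of the 38 without it, 2 were higher and 11 lower, with a median of -0.57. Among all genes compared in WT, 4.26% were higher and 25% lower. A link between the core and the heat response was not tested. In larp1 the medians were -0.29 over 11 genes and -0.55 over 49. The stretch from 230 to 81 bases before the start is printed, read on the gene's strand of TAIR10.1, for 3 membrane-bound genes whose stretch lies outside other genes, with the core in capitals.
ANAC078, chr5:1243454-1243603, plus strand: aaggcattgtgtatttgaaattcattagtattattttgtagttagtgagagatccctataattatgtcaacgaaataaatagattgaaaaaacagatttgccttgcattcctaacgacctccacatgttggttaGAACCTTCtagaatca
NTM2, chr4:676526-676675, minus strand: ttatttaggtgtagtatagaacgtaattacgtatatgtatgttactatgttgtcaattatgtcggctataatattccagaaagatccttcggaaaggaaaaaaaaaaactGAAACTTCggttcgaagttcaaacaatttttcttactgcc
NTL6, chr3:18365040-18365189, minus strand: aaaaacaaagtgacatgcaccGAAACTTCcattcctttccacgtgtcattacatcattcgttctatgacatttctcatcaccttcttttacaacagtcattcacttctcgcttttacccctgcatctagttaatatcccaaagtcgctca

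The core in NTL4 begins at position -199 relative to the start, inside the neighbouring NAC gene ANAC052 (AT3G10490), which ends just upstream. ANAC052 itself, a repressor linked to flowering time, stood at 44.6 and 55.3 RPM at 20 °C and at 39.2 and 57.4 RPM at 38 °C in WT and larp1, with heat log2 ratios of -0.19 and 0.05. Its level sums entries with nearly equal values, 22.99 and 22.98 RPM in larp1 at 20 °C, which may share reads. NTL4 and its neighbour ANAC052 thus differed in heat log2 ratio, 0.63 against -0.19 in WT.

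The genes lower after heat came from several role lists. VNI2 (AT5G13180), a repressor that binds the vessel regulator VND7 and also delays leaf senescence, fell from 33.6 to 5.68 RPM in WT and from 37.4 to 11.2 RPM in larp1. Its log2 ratio of -2.56 [-2.77, -2.37] was the lowest among the NAC genes compared in WT, and in larp1 it was -1.74 [-1.88, -1.61]. All 3 exon entries with at least 20 reads were lower in both. ANAC041 (AT2G33480) fell from 8.54 to 2.05 RPM in WT and from 7.78 to 3.09 RPM in larp1, log2 ratios of -2.05 and -1.32. NAM (AT1G52880), the Arabidopsis gene named after the petunia founder of the family, fell from 4.61 to 1.69 RPM and from 5.50 to 2.42 RPM, log2 ratios of -1.43 and -1.17. SND2 (AT4G28500), an activator of secondary wall genes, had -1.13 and -1.03 at no more than 1.54 RPM. In WT alone the lower calls also held ANAC090 (AT5G22380) at -1.57, SND3 (AT1G28470), another wall regulator, at -1.39, and ANAC084 (AT5G14000) at -1.34; in larp1 these 3 had -0.73, -0.70 and -0.74, all in the same direction but under 2-fold. In larp1 alone the lower calls held ANAC103 (AT5G64060), a factor of the unfolded protein response, at -1.57, ANAC057 (AT3G17730) at -1.38, ANAC048 (AT3G04420) at -1.37, ANAC004 (AT1G02230) at -1.33 and ANAC080 (AT5G07680) at -1.03; all but ANAC080 were under 50 reads in both WT libraries. Most of these calls depended on the scaling. With trimmed means or medians of ratios, ANAC028, ANAC041, VNI2 and ANAC090 were still called lower in WT, and ANAC019, AT3G12977, VNI2 and ANAC103 in larp1. NAM, SND2 and ORS1 lost the call in both genotypes, SND3, ANAC084, ANAC019 and AT3G12977 in WT, and ANAC004, ANAC028, ANAC041, ANAC048, ANAC057 and ANAC080 in larp1.

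Root markers moved in the same direction as these lower genes: SCR, SHR and COBL9, 3 of 4, were lower in both genotypes and WOX5 was higher, and their summed level went from 45.1 to 13.8 RPM in WT and from 42.0 to 18 RPM in larp1. In a bulk library, fewer cells of a type and less RNA per cell cannot be told apart, and the part of root RNA in the NAC values was not tested. The 5 xylem markers summed to 111 and 101 RPM in WT and 108 and 117 RPM in larp1, and 0 of 5 were called, beside 3 of 4 root markers lower. Among all genes, 25% were lower in WT and 19.8% in larp1.

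**Figure D4:**
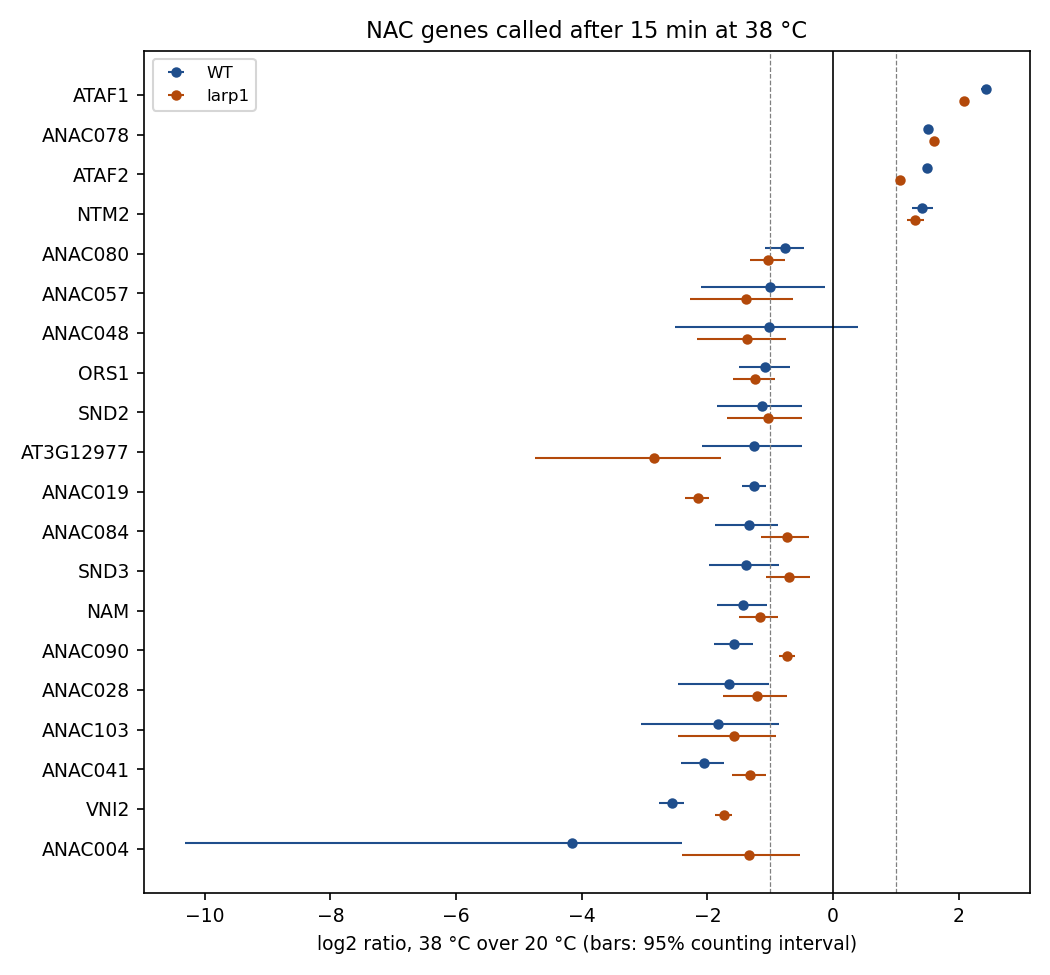
log2 ratio of 38 °C over 20 °C for each NAC gene called in at least 1 genotype, WT in blue and larp1 in orange, with 95% counting intervals as bars and the 2-fold limits dashed. The 4 higher genes are the same in both genotypes, and the values called lower run from -1.03 to -2.85, with ANAC004 in WT resting on 1 read at 38 °C.

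A set of NAC transcripts is cut by the microRNA miR164, which keeps boundary and senescence factors low. The mature miR164a and miR164b-5p have the same sequence, and miR164c-5p differs in the last base; all share the seed, bases 2 to 8, in capitals.
ath-miR164a: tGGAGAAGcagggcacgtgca
ath-miR164c-5p: tGGAGAAGcagggcacgtgcg
Sites with at most 5 mismatches to the complement of miR164a or of miR164c-5p were found in the coding sequence of 8 of the 85 genes. The first base of the ORE1 and ORS1 sites matches miR164c-5p and not miR164a. Against miR164a alone, ORS1 exceeds 5 mismatches. The sites are printed with bases in capitals that mismatch the closer of these microRNAs (TAIR10.1).
NAC1, chr1:20947142-20947162, minus strand: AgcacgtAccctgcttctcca
ANAC080, chr5:2436958-2436978, plus strand: tTTacgtgccctgcttctcca
ANAC100, chr5:24701687-24701707, minus strand: tCTacgtgccctgcttctcca
AT3G12977, chr3:4145631-4145651, plus strand: AgcaTgtAccctgcttctcca
CUC2, chr5:21902301-21902321, minus strand: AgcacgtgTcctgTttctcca
ORE1, chr5:15858797-15858817, minus strand: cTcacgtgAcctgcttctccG
ORS1, chr3:11034693-11034713, plus strand: cTcacgtTAcctActtctccG

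The site of CUC1 (AT3G15170) has the same bases as that of CUC2. Of these 8 genes 6 were compared under heat. In WT 0 were higher and 2 lower, beside 25% of all genes lower. Their median log2 ratio was -0.86, beside -0.51 for the 41 other NAC genes compared. In larp1 0 were higher and 3 lower, beside 19.8% of all genes lower. The median there was -0.90, beside -0.43 for 54 others. With trimmed-mean or median-of-ratios scaling, no gene with a site was called lower in WT, and AT3G12977 alone was in larp1. ORS1 (AT3G29035), a promoter of leaf senescence, fell from 3.89 to 1.83 RPM in WT and from 4.89 to 2.05 RPM in larp1, log2 ratios of -1.08 and -1.24. Its relative ORE1 (AT5G39610), the central senescence regulator of this set, measured 3.71 and 2.60 RPM in the WT libraries and 1.91 and 2.38 RPM in those of larp1 and was not called in any comparison as reported; its log2 ratio of larp1 to WT at 20 °C was -0.96 [-1.29, -0.63], and it was called lower there at -1.02 with median-of-ratios scaling. NAC1 (AT1G56010), a factor of lateral roots and the most abundant of the boundary and miR164 list, had -0.96 and -0.76. That rank rests on an exon entry that carries the name of another gene, with 5.69 RPM in WT at 20 °C. Over the entries named for NAC1 alone, it had 3.30 RPM there and log2 ratios of -0.84 and -0.69. On those entries its level lay below that of ANAC080 in every library. AT3G12977 fell from 1.13 to 0.46 RPM in WT and from 0.94 to 0.11 RPM in larp1, a log2 ratio of -1.25 [-2.09, -0.50] against -2.85 [-4.75, -1.79]. The level of mature miR164 was not analysed here.

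The comparison of larp1 with WT sets the NAC transcripts of the genotypes side by side at each temperature. Genotype cannot be told apart from differences between single pools of plantlets. At 20 °C, 9 NAC genes were higher in larp1 and 0 lower of 60 compared, beside 3.49% higher and 0.493% lower of 20300 genes. At 38 °C, 8 were higher and 0 lower of 46, beside 3.92% and 0.2% of 18532 genes. The higher share of the NAC genes was 15% and 17.4%, above the share of all genes in these libraries. Genes could enter through larp1 alone, and its library at 20 °C was deeper, about 74400000 reads against 46100000 for WT. ANAC044, ANAC048, ANAC085 and AT3G12910 entered that way at 20 °C, and ANAC044, SND3 and AT3G12910 at 38 °C. The filter thus favours higher over lower calls among genes with few reads, and the shares are a description, not a test. The median log2 ratio was 0.28 at 20 °C and 0.33 at 38 °C, against 0.04 and 0.14 for all genes. Of the 9 and the 8, 7 were the same genes: ANAC016, ANAC036, ANAC044, ANAC061, ANAC087, ANAC090 and AT3G12910.

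ANAC036 (AT2G17040), whose overexpression dwarfs the plant, was the most abundant of them. It measured 25.8 and 27.6 RPM in the WT libraries and 60.9 and 59.2 RPM in those of larp1, at 20 and 38 °C, so that genotype and not temperature separated the libraries. The log2 ratios of larp1 to WT were 1.24 [1.15, 1.33] and 1.1 [1.00, 1.20]; with trimmed-mean or median-of-ratios scaling ANAC036 was no longer called at 38 °C. ANAC087 (AT5G18270), a factor of root cap and senescence cell death, measured 14.5 and 8.90 RPM in the WT libraries and 35.2 and 26.5 RPM in those of larp1, log2 ratios of 1.28 and 1.57. ANAC090, a repressor of salicylic acid and senescence genes, measured 8.10 and 2.72 RPM in the WT libraries and 26.6 and 15.98 RPM in those of larp1, log2 ratios of 1.71 and 2.54. ANAC061 (AT3G44350), the closest relative of ANAC090, measured 2.02 and 1.39 RPM in the WT libraries and 13.4 and 10.11 RPM in those of larp1, log2 ratios of 2.71 [2.42, 3.05] and 2.84 [2.47, 3.28]. For these 4 genes both larp1 libraries lay above both WT libraries. All 3 exon entries of ANAC061 with at least 20 reads were higher in larp1, by 5.07-fold to 7.36-fold at 20 °C.

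Genes with few reads in WT showed the largest ratios. AT3G12910 stood at 0.11 and 0.31 RPM in WT, which is 5 and 13 reads, and at 2.17 and 1.71 RPM in larp1, log2 ratios of 4.05 [3.06, 5.96] and 2.38 [1.63, 3.46]. ANAC044 (AT3G01600), a stop signal of the cell cycle after DNA damage, measured 0.55 and 0.09 RPM in the WT libraries and 1.93 and 1.21 RPM in those of larp1, log2 ratios of 1.77 and 3.44. Its close relative ANAC085 (AT5G14490) had 1 read in each WT library and 57 and 23 reads in larp1; the ratio at 20 °C was 35.3 [6.08, 1418]. At 20 °C ANAC048 had 0.33 RPM in the WT library and 1.31 RPM in that of larp1, a log2 ratio of 1.91, and was under 50 reads at 38 °C. SND3 was called at 38 °C alone, with a log2 ratio of 1.30 [0.77, 1.9], and had 0.61 at 20 °C. The third gene of the DNA damage set, SOG1 (AT1G25580), the activator upstream of ANAC044 and ANAC085, measured 8.90 and 6.28 RPM in the WT libraries and 9.90 and 7.10 RPM in those of larp1 and was not called. Of 5 genes known to respond to SOG1, 1, SMR5, was higher in larp1 at 20 °C, beside 3.49% of all genes. At 38 °C 0 of the 3 compared were, beside 3.92%.

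ANAC016 (AT1G34180), a membrane-bound promoter of senescence, measured 1.65 and 1.77 RPM in the WT libraries and 5.18 and 4.24 RPM in those of larp1. The log2 ratios were 1.64 [1.29, 2.03] at 20 °C and 1.25 [0.85, 1.65] at 38 °C. ANAC017 lies next to ANAC016 on chromosome 1, on the same strand, and had log2 ratios of -0.11 and 0.20. ANAC017 and ANAC013 activate a set of nuclear genes when mitochondria fail, through a promoter sequence called the mitochondrial dysfunction motif. ANAC013 (AT1G32870), outside the 85, measured 14.8 and 22.2 RPM in the WT libraries and 44.7 and 53.6 RPM in those of larp1, log2 ratios of 1.59 and 1.27. All 7 genes of a list of such responders were higher in larp1 at both temperatures, beside 3.49% and 3.92% of all genes. Their median log2 ratios were 2.73 at 20 °C and 2.03 at 38 °C. The list was chosen with earlier results of these data known. AOX1A, the alternative oxidase of mitochondria, measured 56.9 and 56.5 RPM in the WT libraries and 162 and 169 RPM in those of larp1. NDB4, an external NADH dehydrogenase, measured 0.60 and 0.66 RPM in the WT libraries and 14.7 and 15.3 RPM in those of larp1. UGT74E2, a glycosyltransferase of indole butyric acid, measured 10.3 and 6.57 RPM in the WT libraries and 169 and 163 RPM in those of larp1. Under heat, 1 of the 5 responders compared in WT, UPOX, was higher, and 0 of 7 in larp1, beside 4.26% and 4.19% of all genes.

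The mitochondrial dysfunction motif is CTTG, 5 bases of any kind and CAAG or CACG. On either strand, the form ending in CAAG was found within 300 bases before the start in 2 of the 88 NAC entries, ANAC044 and ANAC045, and in 0.816% of all promoters. With both forms it was found in 4 of the 88, ANAC017 and SND3 added, and in 1.33% of all promoters. Of the 7 responders, 1, UPOX, held either form in this window; ANAC013 held neither there.

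**Figure D5:**
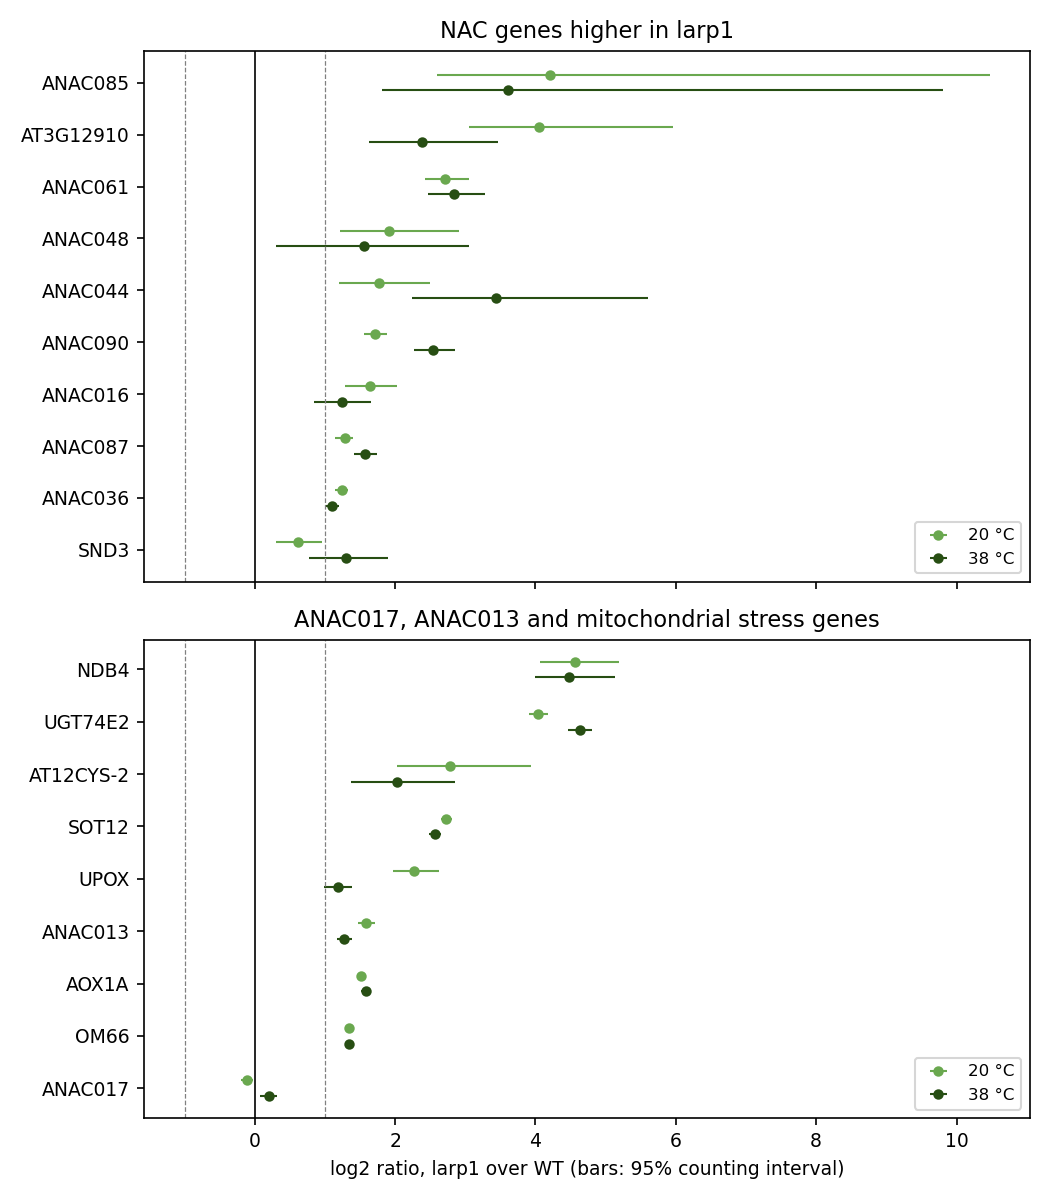
log2 ratio of larp1 over WT at 20 °C (light green) and 38 °C (dark green) with 95% counting intervals as bars and the 2-fold limits dashed, for the NAC genes called in at least 1 of the 2 comparisons (upper panel) and for ANAC017, ANAC013 and 7 mitochondrial stress genes (lower panel). ANAC048 and ANAC085 were under 50 reads at 38 °C and not called there. ANAC017 lies near 0, ANAC013 at 1.59 and 1.27, and the 7 responders above 1.

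Most other stress and senescence targets were not called. Of 11 known targets of stress and senescence NAC factors compared at 20 °C, 1, SAG113, was higher in larp1 and 1, BSMT1, lower. At 38 °C 0 of 10 were called either way. Among all genes, 3.49% were higher and 0.493% lower at 20 °C, and 3.92% and 0.2% at 38 °C. Of the 2 senescence markers measured, SAG13 was higher in larp1 at both temperatures and NYE1 was not called; their sum was 14.4 and 13 RPM in WT and 39.2 and 26.2 RPM in larp1. Whether older leaf tissue takes part in the larp1 values of ANAC016, ANAC087 and ANAC090 was not tested.

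The difference between the heat responses of the genotypes was compared for 47 NAC genes. None was at least 2-fold more raised in larp1 and 1, AT3G12977, was at least 2-fold more lowered, beside 2.07% and 0.661% of 19350 genes; the difference in log2 ratio was -1.6 [-3.00, -0.19] and rests on 5 reads in larp1 at 38 °C. The median difference was 0.08 for NAC genes and 0.10 for all genes. ANAC055 (AT3G15500) and ANAC019, close relatives in jasmonate signalling, had -0.86 [-1.11, -0.61] and -0.90 [-1.17, -0.63], under 2-fold; with trimmed-mean scaling ANAC019 had -1.01 and was called. ANAC055 went from 11.2 to 13.8 RPM in WT and from 10.9 to 7.39 RPM in larp1, so the 2 libraries at 20 °C lay close together and those at 38 °C apart. Trimmed-mean scaling put its heat log2 ratios at 0.80 [0.63, 0.98] in WT and -0.17 [-0.36, 0.02] in larp1. ANAC090 and VNI2, both lowered more in WT, had differences of 0.83 [0.51, 1.16] and 0.82 [0.58, 1.06].

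Root cap and phloem genes were low. Among 4 root cap genes, which drive the layering and shedding of that tissue, BRN1 (AT1G33280) was the most abundant at 0.45 to 0.80 RPM, and 0 of the 2 that could be compared in any comparison were called. Among 4 phloem genes, ANAC086 (AT5G17260), needed for the loss of the nucleus in sieve elements, stood at 0.66 to 1.20 RPM. Of 7 vessel and fibre genes within the 85, 5 were compared in WT and 3 lower after heat (SND2, SND3 and VNI2), and 6 were compared in larp1 and 2 lower (SND2 and VNI2), beside 25% and 19.8% of all genes. With trimmed-mean or median-of-ratios scaling VNI2 was the 1 lower gene in each genotype. Of 11 secondary wall targets, 7 to 9 were compared in each comparison and 0 called; XCP1, a vessel protease, stood at 27.5 to 33.3 RPM. VND6 (AT5G62380), a vessel regulator outside the 85, was higher after heat at 1.55 in WT and 1.57 in larp1, and NAP (AT1G69490), a senescence activator also outside, at 1.89 and 1.9. ANAC082 (AT5G09330), which mediates ribosomal stress, was abundant at 43.2 to 78.4 RPM and was not called. Its level also sums entries with nearly equal values, such as 7.14 and 7.16 RPM in WT at 20 °C.

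The 3 neighbouring entries that carry a NAC name give no NAC value. AT1G01725, whose gene overlaps the end of ATAF1 on the other strand, went from 3.69 to 7.91 RPM in WT and from 5.07 to 7.72 RPM in larp1; with strand not stated, reads of the shared bases cannot be told apart from ATAF1. AT5G04420, which overlaps the end of ANAC078, stayed at 14.8 to 16.7 RPM while ANAC078 rose. AT4G36170 had at most 0.12 RPM. In the authors' deposited table of genes up after heat in both genotypes, the NAC genes were ATAF1, NTM2, ANAC078 and ATAF2, with ratios for ATAF1 of 5.38 in WT and 4.22 in larp1. The authors' deposited table of genes down in both listed NAM, ANAC019, ANAC028, ANAC041, ORS1 and VNI2, without AT3G12977 and SND2. The authors' deposited list of genes down in WT and not in larp1 held SND3, ANAC084 and ANAC090. Their list of genes down in larp1 and not in WT, in the authors' deposited table, held ANAC044 and none of the 5 genes called lower in larp1 alone here. The authors' ratios for ANAC044 were nevertheless 0.0833 in WT and 0.467 in larp1. Here ANAC044 was not called lower in larp1 and had too few reads to be compared under heat in WT.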

How the data were processed

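Per the file headers the authors deposited a signal for every exon entry, called RPM and given to 2 decimals; their gene lists add a ratio of 38 over 20 °C. The submitters' processing notes name BWA 0.5.9 and TAIR10; neither the counter nor its use of strand is given in the sources used here. Per the labels' protocols, ribosomal RNA was depleted and 100-base single reads were sequenced. Entries were whole multiples of 1 read within 0.0051 RPM for at least 99.9994%, which recovered the reads. Of 430 entries of the 88 loci, 342 were distinct and were summed. Log2 ratios used RPM with 1 read's worth added, which understates changes of low genes; intervals are exact conditional binomial, or normal for the difference of heat responses. Where exons overlap, a read may count more than once, and nearly equal entries of RD26, ANAC041, ANAC052 and ANAC082 may be such cases. PCR copies are not independent molecules. Coordinates, coding lengths, promoters, miRNAs and proteins come from RefSeq's TAIR10.1; the deposited entries have no coordinates. Named by rule were the 8 highest and 8 lowest called members of each heat comparison, 5 of each other comparison and the most abundant of each list; the other called members were named after their values were seen. The members and lists were chosen with earlier results of these data known. Alternative scalings, read minimums, pseudocount, fold and exon choices were tried. The work used numpy 2.4.6 and scipy 1.17.1, with pandas 2.3.3 and matplotlib 3.10.9, under Python 3.11.15.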

Additional observations from a re-analysis of the deposited data

Results flagged for a closer look

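The heat response of ANAC055 had opposite directions in the genotypes, with log2 ratios of 0.30 in WT and -0.56 in larp1, each with a counting interval clear of no change. The opposite direction depends on the scaling: trimmed means gave 0.80 [0.63, 0.98] and -0.17 [-0.36, 0.02], and medians of ratios 0.83 [0.65, 1.00] and -0.13 [-0.32, 0.06], so that the larp1 interval reached no change. This was flagged because every library of 1 genotype moved one way and that of the other the opposite way; with 1 library a group the difference was not tested against variation between plants. AT3G12977 was flagged because its heat responses differed by -1.6 on the log2 scale, an untested difference that rests on 5 reads in the heated larp1 library.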

How the results depend on the processing

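No paired analysis was possible because each group has 1 library, and no library could be left out. Trimmed-mean (TMM) scaling gave 7 NAC genes higher and 4 lower after heat in WT (median -0.02), 4 lower in larp1 (median -0.08), 1 lower in larp1 at 38 °C (ANAC055) and 2 with a lower difference of heat responses. Median-of-ratios scaling gave 7 higher and 4 lower in WT (median 0.00), 4 lower in larp1 (median -0.04), and 1 lower in larp1 against WT at each temperature (ORE1 at 20 °C, ANAC055 at 38 °C). With TMM, 0.372% of all genes were lower in larp1 against WT at 38 °C. With medians of ratios these were 0.626% at 20 °C and 0.389% at 38 °C. With a minimum of 10 reads, 20 of 71 were lower in WT, beside 25.7% of all genes. In larp1 against WT 1 of 73 was lower at 20 °C and 1 of 68 at 38 °C, beside 1.14% and 0.574%. The difference had 2 higher and 3 lower of 69, beside 2.88% and 1.29%. With no minimum, 20 of 85 were lower in WT, beside 22.2%. In larp1 against WT 1 was then lower at 20 °C and 2 at 38 °C, beside 1.31% and 0.554%. The difference again had 2 and 3, beside 2.70% and 1.37%. These settings compare more genes than the 47 in WT as reported. A pseudocount of 0.5 RPM left 6 of 60 lower after heat in larp1, beside 15.2% of all genes, and 0 in the difference. Exon entries of at least 1 RPM left 8 of 46, beside 19.4%. They gave 1 lower in larp1 against WT at 20 °C, and 0 in the difference. Genes higher in larp1 than in WT at 20 and 38 °C were 9 of 60 and 7 of 46 with the pseudocount, beside 2.49% and 2.93%. With these exon entries they were 7 of 46 and 6 of 40, beside 3.02% and 3.83%. With TMM or median-of-ratios scaling they were 9 and 7. At 3-fold, 1 was higher and 3 lower of 47 after heat in WT, beside 2.79% and 9.97% of all genes. After heat in larp1 these were 2 and 3 of 60, beside 2.78% and 7.08%. Against WT, 7 of 60 were higher in larp1 at 20 °C and 4 of 46 at 38 °C, beside 1.77% and 1.94%. Of 539 values of called genes over all alternatives, 79 lost the call and 0 changed sign. A lower or absent read minimum and the use of all 88 entries leave the values of called genes unchanged, so no call could be lost there. With trimmed means, as with medians of ratios, 17 of 50 called values lost the call. With exon entries of at least 1 RPM, 36 kept the call and 3 lost it, and the rest were not counted. The alternatives of entries that carry a NAC name alone and of all 88 entries, and the second form of the mitochondrial motif, were added after the data were seen. Depth limits the 25 genes under 50 reads.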
